A study of Mus musculus with 33 samples.

Results

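The 10 genes Fkbp5, Tsc22d3, Plin4, Sgk1, Map3k6, Cdkn1a, Klf15, Klf9, Sult1a1 and Zbtb16 were followed in mouse brain across every group and both assays of a study of the tRNA n-Tr20. They are known to be induced by glucocorticoids in brain, and all 10 were found by symbol among 54752 genes in the forebrain and hippocampus RNA files and among 22523 in the ribosome footprint files. They were selected after earlier results of these data had shown genes of this kind higher in C57BL/6J (B6J) forebrain, and in B6J knockout forebrain, than in B6J forebrain with an n-Tr20 transgene. Those comparisons are therefore given as descriptions with no test of the 10 genes. The n-Tr20 gene encodes an arginine tRNA made in neurons.

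There were 33 libraries, all from mice 8 weeks old. Forebrain RNA depleted of ribosomal RNA came from 20 mice in 5 groups of 4. In batch 1 these were C57BL/6NJ mice with wild-type n-Tr20 (B6N), C57BL/6NJ mice that were n-Tr20 -/- (B6N knockout), C57BL/6J mice, labelled hypomorphic for n-Tr20 (B6J), and C57BL/6J mice labelled Tg(n-Tr20) (B6J transgenic). The fifth group, C57BL/6J mice that were n-Tr20 -/- (B6J knockout), made up batch 2 together with a second library of transgenic mouse 4. The hippocampus groups were B6N and B6N knockout, with 3 libraries each of poly(A) RNA and of ribosome footprints. The titles of the hippocampus libraries name no batch. A footprint is the stretch of mRNA that a ribosome protects when nuclease digests the rest. The labels call the hippocampus mice C57BL/6NJ, while the headers of the RNA files and part of the protocol name B6JN, so their background is less certain. The B6J knockout and the B6J transgenic mice carry the other variants of the B6J strain, and the labels say nothing of the promoter, copy number or insertion site of the transgene.

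Glucocorticoids are adrenal steroid hormones that enter cells and bind the glucocorticoid receptor, encoded by Nr3c1, which is held in the cytosol by Hsp90 and its co-chaperones. The bound receptor moves to the nucleus, attaches to short palindromic DNA elements and raises or lowers transcription of nearby genes. In brain, levels of the hormone follow the time of day and stress, the mineralocorticoid receptor (Nr3c2) binds the same hormone, and neurons, glia and endothelial cells all respond. A gene on this list can also be driven by other signals, as Cdkn1a is by p53.

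A search of the RefSeq promoter windows (GRCm38.p6, from 250 bases before to 50 bases after an annotated start) covered 9 of the 10 genes in 17 windows. The pattern GNACANNNTGTNC, a relaxed form of the palindrome that the receptor binds, was searched on both strands and stood in 2 of those windows, those of Map3k6 and Sgk1. Across all 32851 windows, 156 (0.475%) held it. The 2 matches are shown because they are the only ones to this pattern in the windows searched. Each is printed 5′ to 3′ on the plus strand, which is the strand of both genes, with the match in capitals. The match began 181 bases before an annotated start of Map3k6 (chr4:133240587-133240699) and 188 bases before a start of Sgk1 (chr10:21993652-21993764). Both windows lie inside the annotated span of the gene, which begins at 133237979 for Map3k6 and at 21882184 for Sgk1.
Map3k6: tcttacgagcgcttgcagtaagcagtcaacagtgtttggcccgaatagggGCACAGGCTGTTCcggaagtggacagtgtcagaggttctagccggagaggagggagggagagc
Sgk1: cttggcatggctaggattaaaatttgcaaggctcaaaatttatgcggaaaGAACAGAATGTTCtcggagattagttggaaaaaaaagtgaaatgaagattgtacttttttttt
The shorter run AGAACA, or TGTTCT on the other strand, stood in 5 of the 17 windows, from Sgk1, Sult1a1 and Tsc22d3, against 19.0% of all windows. Its copies can overlap the longer pattern, as at Sgk1. A match describes letters in a window and is no measurement of binding.

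Totals ran from 14.7 M to 38.5 M estimated counts in forebrain (M, 1000000). Hippocampus RNA libraries held 35.8 M to 60.4 M counts, and footprint libraries 7.6 M to 17.9 M. Levels below are counts per 1000000 (CPM) on scaled library sizes. Forebrain libraries held 6 forebrain regional markers at a summed 188.2 to 238.8 CPM, and 5 hindbrain and spinal cord markers at no more than 1.97 CPM. A list of 6 hippocampus markers summed to 130.6 to 151.1 CPM in forebrain and 570.4 to 651.7 CPM in hippocampus RNA. Choroid plexus content was uneven. Ttr, the thyroid hormone carrier transthyretin made by choroid plexus, ran from 0.765 to 430.1 CPM in batch 1 forebrain and from 348.7 to 500.8 CPM in the 4 B6J knockouts. By Xist and Ddx3y, B6J knockouts 1 to 3 were female and every other forebrain library male, and in hippocampus RNA knockout 1 was female. Ddx3y in footprints was at 45.5 CPM in knockout 1 and at 67.1 to 107.0 CPM in the other libraries. The sex behind footprint knockout 1 was therefore not assigned. In bulk tissue, fewer cells of a type and less RNA per cell cannot be told apart.

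Per length, in TPM (transcripts per 1000000) deposited by the authors and summed over the transcripts of a gene, Sgk1 led with a mean of 32.7 TPM over 20 mice (range 21.2 to 57.5). Sgk1 is the serum- and glucocorticoid-regulated kinase, which controls ion channels and transporters. Klf9 followed at 25.0 TPM (18.5 to 36.4) and Tsc22d3 at 21.4 TPM. Fkbp5 stood at 9.52 TPM, Zbtb16 at 6.94, Sult1a1 at 4.8 and Klf15 at 4.57. The lowest were Cdkn1a at 2.17 TPM, Plin4 at 1.17 and Map3k6 at 1.03. The range over the 20 mice overlapped that of the next gene in this order, except between Klf15 (3.2 to 7.3 TPM) and Cdkn1a (1.17 to 3.06 TPM).

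In B6N forebrain without n-Tr20, Cdkn1a rose and Tsc22d3 fell, and the other 8 genes did not pass the test. Across all 25151 genes tested in that comparison, 1.91% were called, so 2 of 10 is to be read beside that share. A gene was called at an adjusted p under 0.05, from the quasi-likelihood test of edgeR, with all tested genes entering the Benjamini-Hochberg adjustment. That test applies to every adjusted p below, and the p-values measure the spread between libraries taken as separate animals. The median log2 fold change of the 10 genes was -0.03, against -0.001 for all genes. Neither group of this comparison entered those on which the genes were chosen.

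Cdkn1a (ENSMUSG00000023067.14; chromosome 17, 29090979 to 29100722 on GRCm38) encodes p21, an inhibitor of cyclin-dependent kinases. In B6N 1 to 4 its level was 6.83, 4.95, 5.36 and 5.57 CPM, and in B6N knockouts 1 to 4 it was 9.66, 9.35, 8.03 and 7.92 CPM. All 4 knockouts lay above all 4 B6N mice. The rise was 1.53-fold (log2 fold change 0.62 ± 0.13 SE, n = 4 per group, adjusted p = 0.00826). On a separate list of p53 targets 1 of 9 tested passed, Ccng1 (cyclin G1), which rose 1.18-fold (adjusted p = 0.0497), and 4 of 9 lay above 0.

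Tsc22d3 (ENSMUSG00000031431.13; chromosome X, 140539528 to 140600522) encodes GILZ, the glucocorticoid-induced leucine zipper, which restrains inflammatory signalling. Levels were 71.8, 68.3, 70.3 and 73.8 CPM in B6N 1 to 4, against 62.2, 55.6, 51.7 and 59.1 CPM in knockouts 1 to 4. Every knockout lay below every B6N mouse. The fall was 1.25-fold (log2 fold change -0.32 ± 0.06 SE, n = 4, adjusted p = 0.00704).

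The forebrain files resolve transcripts, and the 2 most abundant transcripts of Tsc22d3 differed in this comparison. Tsc22d3-201, annotated as protein coding, was at 47.9, 45.6, 46.9 and 54.8 CPM in B6N and at 39.8, 33.6, 30.7 and 38.9 CPM in the knockout, with no overlap. Tsc22d3-202, annotated as a processed transcript without a coding frame, was at 17.7, 15.8, 15.7 and 14.2 CPM in B6N and at 18.9, 17.2, 17.2 and 14.7 CPM in the knockout, so the groups overlapped. In B6J knockout forebrain Tsc22d3-201 was at 53.6 to 66.7 CPM and Tsc22d3-202 at 14.4 to 17.9 CPM. Across the groups, therefore, the range of Tsc22d3-201 was wider than that of Tsc22d3-202. Splitting of reads between transcripts is an estimate, and transcripts were not tested.

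**Figure D1:**
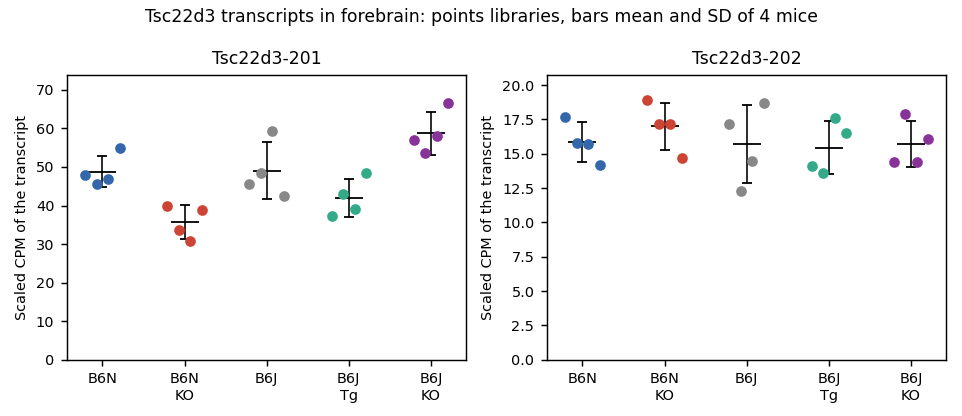
Scaled CPM of the 2 most abundant Tsc22d3 transcripts in forebrain, by group, with 1 point per mouse and bars for the mean and SD of 4 mice. The B6N knockouts lie at 30.7 to 39.8 CPM of Tsc22d3-201, below the B6N mice at 45.6 to 54.8, while for Tsc22d3-202 the groups overlap.

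Klf9 and Klf15 encode Krüppel-like transcription factors that glucocorticoids induce, and Klf9 acts in neuronal maturation. Klf9 (ENSMUSG00000033863.1; chromosome 19, 23141226 to 23168129) was at 133.6 to 138.3 CPM in B6N and at 138.8 to 153.5 CPM in the knockout. The groups did not overlap, but the difference did not pass (log2 fold change 0.10 ± 0.04 SE, adjusted p = 0.265, n = 4). Klf15 (ENSMUSG00000030087.11; chromosome 6, 90461043 to 90491803) was at 19.2 to 24.3 CPM and 16.2 to 20.0 CPM, with overlap (-0.20 ± 0.07 SE, adjusted p = 0.202). The other 6 genes had log2 fold changes from -0.12 (Sgk1) to 0.10 (Sult1a1), each with overlapping groups.

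Other genes of the pathway were counted in the same comparison. Of 24 genes on a list of other glucocorticoid-induced genes, 23 had counts enough to be tested. None of the 23 was called by edgeR or DESeq2, and 2 lay above 0, with a median log2 fold change of -0.08. In edgeR 6 of them had an unadjusted p under 0.05, as had 3185 of all 25151 genes tested. For Per1, a clock gene with a glucocorticoid response element, the log2 value was -0.35 ± 0.12 SE, which did not pass (adjusted p = 0.198). Among 14 genes for the receptor and the handling of its ligand, 1 rose, Ptges3, the Hsp90 co-chaperone p23, by 1.2-fold (adjusted p = 0.00273), and DESeq2 called Stip1, another co-chaperone, as well. The receptor gene Nr3c1 was at 129.0 ± 6.12 CPM in B6N and 120.8 ± 2.99 CPM in the knockout (SD, n = 4; adjusted p = 0.247), and Nr3c2 at 73.0 ± 1.52 and 65.0 ± 4.0 CPM (adjusted p = 0.159). For Hsd11b1, the enzyme that regenerates active hormone inside cells, the adjusted p was 0.82.

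A list of 12 ATF4 targets, which the integrated stress response raises, had 10 called higher in the same comparison, with Chac1 at 2.82-fold (adjusted p = 3.86e-09). Clock genes also differed between the groups. Arntl, a core activator of the clock, rose 1.34-fold (adjusted p = 0.0147) while Per3, Nr1d2 and Tef fell, by log2 fold changes of -0.36, -0.32 and -0.30. Dbp, a clock output gene, was at 61.1 to 68.5 CPM in B6N and at 24.3, 42.5, 35.4 and 61.0 CPM in knockouts 1 to 4. Of the clock list, 1 of 12 rose and 3 fell in edgeR (1 and 5 in DESeq2, which added Cry2 and Dbp), and the part of the clock in the values of the 10 genes was not tested. A list of 10 activity-induced early genes lay wholly below 0, with a median of -0.42, and edgeR and DESeq2 called none. In edgeR 3 of them had an unadjusted p under 0.05. Their summed level was 373.1 to 538.1 CPM in the knockout and 513.4 to 652.5 CPM in B6N, and their part was not tested either. Ttr measured 170.9, 118.8, 2.74 and 130.3 CPM in B6N 1 to 4, against 2.6, 1.88, 257.2 and 1.89 CPM in knockouts 1 to 4. With the log2 level of Ttr as a term, added after its levels were seen, Cdkn1a stood at 0.532 (adjusted p = 0.023) and Tsc22d3 at -0.346 (adjusted p = 0.00924).

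**Figure D2:**
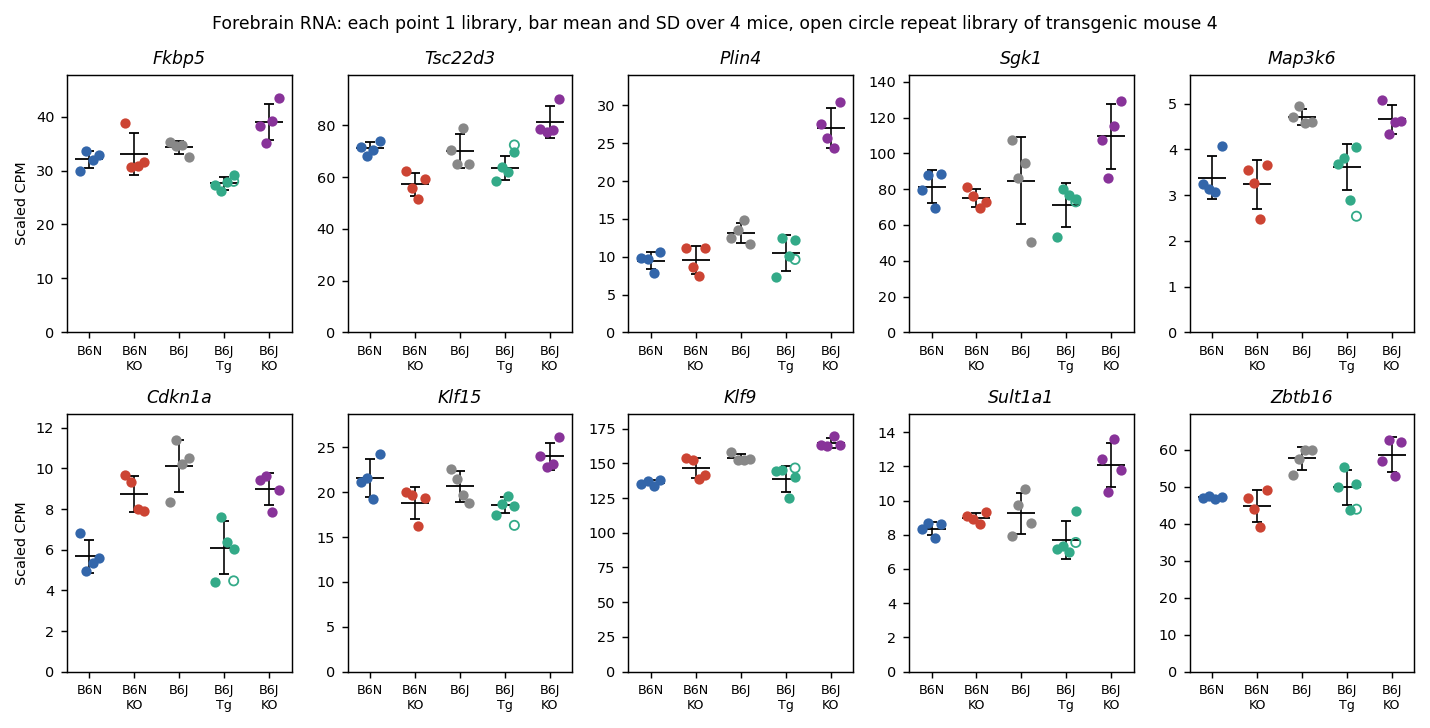
Scaled CPM of the 10 genes in forebrain RNA by group (KO, knockout; Tg, transgenic), 1 point per library, with the mean and SD of 4 mice and an open circle for the repeat library of transgenic mouse 4. Plin4 is at 24.4 to 30.4 CPM in the B6J knockout and at no more than 14.8 CPM elsewhere, and Cdkn1a is higher in B6N knockout and B6J than in B6N.

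Between the strains, Cdkn1a, Zbtb16 and Klf9 rose in B6J against B6N forebrain, 3 of the 10 genes, where 1.73% of all genes were called. The median log2 fold change of the 10 was 0.16, and 8 lay above 0. These B6J libraries also entered a comparison on which the genes were chosen, so the calls are not independent of that choice. Strain and n-Tr20 level cannot be told apart in it.

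Cdkn1a was at 8.36, 11.4, 10.2 and 10.5 CPM in B6J 1 to 4, above all 4 B6N mice (4.95 to 6.83). It rose 1.78-fold (log2 fold change 0.83 ± 0.13 SE, n = 4, adjusted p = 0.000597). Zbtb16 (ENSMUSG00000066687.5; chromosome 9, 48651797 to 48836225), which encodes the zinc finger repressor PLZF, was at 46.8, 47.6, 46.7 and 47.2 CPM in B6N and at 53.2, 57.5, 59.9 and 60.0 CPM in B6J. The groups did not overlap, and the rise was 1.22-fold (0.29 ± 0.06 SE, adjusted p = 0.0163). Klf9, at 133.6 to 138.3 CPM in B6N, was at 157.8, 152.0, 152.6 and 153.1 CPM in B6J, again above all B6N mice, and rose 1.13-fold (0.18 ± 0.04 SE, adjusted p = 0.0203). The call of Klf9 was lost without B6J 1, B6J 4, B6N 1 or B6N 3 (adjusted p 0.0562, 0.0593, 0.0564 and 0.0841), and with an offset for transcript length (0.13). That of Zbtb16 was lost without B6J 3, B6J 4, B6N 1, B6N 3 or B6N 4 (0.0631, 0.0703, 0.0505, 0.0615 and 0.0551), and with that offset (0.122).

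Map3k6 and Plin4 were also higher in all B6J than in all B6N mice without passing in the main fit. Map3k6 (ENSMUSG00000028862.6; chromosome 4, 133237979 to 133252929), a kinase of stress-activated MAP kinase cascades, was at 3.25, 3.14, 3.07 and 4.07 CPM in B6N and at 4.72, 4.94, 4.57 and 4.59 CPM in B6J (0.48 ± 0.13 SE, adjusted p = 0.0599). Plin4 (ENSMUSG00000002831.13; chromosome 17, 56100587 to 56109948) encodes perilipin 4, a coat protein of lipid droplets. It was at 9.8, 9.67, 7.89 and 10.6 CPM in B6N and at 12.5, 13.5, 14.8 and 11.7 CPM in B6J (0.46 ± 0.16 SE, adjusted p = 0.206). In a fit of these 2 groups alone both passed, Map3k6 at an adjusted p of 0.0316 and Plin4 at 0.00311, which makes 5 of 10. That fit called 990 genes in all, against 434 in the main fit. Without B6N 4, Map3k6 passed as well (0.0397). DESeq2 also called Plin4, and with a replicate block both genes passed.

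Sgk1 (ENSMUSG00000019970.15; chromosome 10, 21882184 to 21999903) was the least even of the 10 within B6J, at 107.2, 86.3, 94.6 and 50.6 CPM. B6J 1, its highest library, was also the B6J library with the most Ttr (430.1 CPM, against 0.765 to 1.77 in the others). Other groups differed in this. Transgenic mouse 1 had the most Ttr of its group (50.6 CPM) and the least Sgk1 (53.1 CPM). The same held for B6N knockout 3 (257.2 and 69.6 CPM). B6N 3 and B6J knockout 2 had the least of both genes in their groups. The part of choroid plexus in these values was not tested. B6N mice had 69.2 to 88.6 CPM of Sgk1, within the B6J range, and the difference between the strains did not pass (0.06 ± 0.19 SE, adjusted p = 0.947, n = 4).

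In the wider lists of this comparison, none of 23 other glucocorticoid-induced genes was called by edgeR (9 had an unadjusted p under 0.05), while DESeq2 called 2 lower, Arl4d and Dusp1. In edgeR 3218 of all 25151 genes had an unadjusted p under 0.05. Of 12 ATF4 targets 4 rose, Arntl rose 1.3-fold (adjusted p = 0.04), and DESeq2 also called 3 clock genes lower (Ciart, Per3 and Tef). Of 10 activity-induced early genes 8 had an unadjusted p under 0.05, with a median of -0.74. In edgeR 1 of them fell, Ier2 (-0.73, adjusted p = 0.0214), and DESeq2 called 5 lower (Btg2, Fos, Ier2, Junb and Npas4). Meningeal markers moved with the groups: Dcn and Ogn, 2 of 7, fell (-0.35 and -0.61), and the summed list was at 61.5 to 80.5 CPM in B6J and 82.3 to 106.1 CPM in B6N. Their part in the values of the 10 genes was not tested.

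Against B6N, the B6J transgenic forebrain showed no call among the 10 genes by edgeR or DESeq2 (3 had an unadjusted p under 0.05), where 0.366% of all genes were called. An unadjusted p under 0.05 was found in edgeR for 2230 of all 25151 genes. The transgenic libraries too belong to the comparisons on which the genes were chosen. Fkbp5 (ENSMUSG00000024222.17; chromosome 17, 28398753 to 28486149) is an Hsp90 co-chaperone that lowers the affinity of the receptor for its hormone. It was at 30.0, 33.6, 32.0 and 32.8 CPM in B6N and at 27.3, 26.2, 27.9 and 29.1 CPM in transgenic mice 1 to 4. The groups did not overlap, but the difference did not pass (-0.21 ± 0.06 SE, adjusted p = 0.159, n = 4). Cdkn1a stood at 5.68 ± 0.814 CPM in B6N and 6.1 ± 1.31 CPM in the transgenic mice (SD, n = 4; adjusted p = 0.896), and Klf15 had a log2 fold change of -0.22 (adjusted p = 0.304). Of 23 other glucocorticoid-induced genes edgeR called none (6 had an unadjusted p under 0.05) and DESeq2 called 1 lower, Nfkbia.

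**Figure D3:**
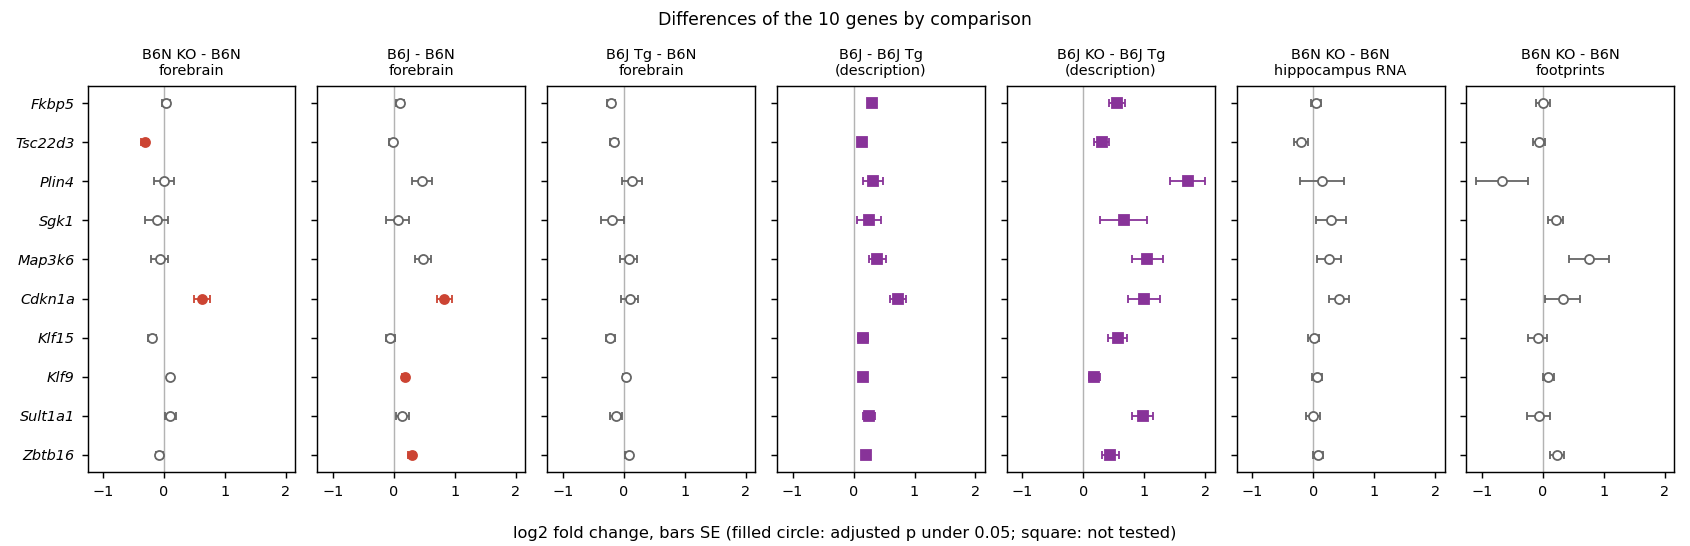
Log2 fold changes of the 10 genes with SE in 7 comparisons, with filled circles for an adjusted p under 0.05, open circles for genes that did not pass and squares for comparisons on which the genes were chosen. Cdkn1a is filled at 0.62 in B6N knockout against B6N and at 0.83 in B6J against B6N, and Tsc22d3 is filled at -0.32 in the former.

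For B6J against B6J transgenic forebrain, within 1 strain and 1 batch, the values are a description, because the genes were chosen on it. All 10 were higher in B6J on average, with log2 fold changes from 0.14 (Tsc22d3) to 0.73 (Cdkn1a), a median of 0.26 and a median over all genes of -0.001. In 4 genes, Fkbp5, Map3k6, Cdkn1a and Klf9, the groups did not overlap. Of all genes 2.58% were higher in B6J without overlap, and 0.25% were called. Fkbp5 was at 35.3, 34.5, 34.8 and 32.5 CPM in B6J, every value above the highest transgenic one (29.1). Cdkn1a was at 4.41, 7.59, 6.4 and 6.02 CPM in transgenic mice 1 to 4, below the lowest B6J value (8.36). Of 23 other glucocorticoid-induced genes none was called by edgeR (4 had an unadjusted p under 0.05), and the median was 0.03. In edgeR 2592 of all 25151 genes had an unadjusted p under 0.05. The summed choroid plexus markers were at 188.7 to 921.0 CPM in B6J and 209.0 to 280.5 CPM in the transgenic mice, the top value being that of B6J 1. Of 7 meningeal markers all lay below 0 without passing.

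The comparison of B6J knockout with B6J transgenic forebrain had the widest differences, also given as a description. Plin4 was at 27.6, 25.7, 24.4 and 30.4 CPM in knockouts 1 to 4 and at 7.37, 12.5, 10.1 and 12.2 CPM in transgenic mice 1 to 4, a 3.28-fold difference after allowing for batch (log2 fold change 1.71 ± 0.29 SE). The knockouts lay above the transgenic mice in 9 of 10 genes, Zbtb16 being the exception (52.9 to 62.7 CPM against 43.8 to 55.3), where 7.99% of all genes did so. All 10 fold changes were above 0, from 0.18 (Klf9) to 1.71 (Plin4), and 0.738% of all genes were called. In edgeR 2966 of all 25481 genes had an unadjusted p under 0.05.

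The size of the difference varied with the gene. Fkbp5 was at 38.2, 35.2, 39.2 and 43.4 CPM in knockouts 1 to 4, against 27.3 to 29.1 CPM in the transgenic mice, a 1.47-fold difference (log2 fold change 0.55 ± 0.13 SE). Sgk1 was at 107.2, 86.3, 115.0 and 129.4 CPM against 53.1, 79.9, 76.9 and 74.7 CPM, with knockout 2 closest to the transgenic mice (0.66 ± 0.39 SE). For Klf15, the knockouts had 22.8 to 26.1 CPM, and transgenic mice 1 to 4 had 17.4, 18.7, 19.6 and 18.5 CPM (0.56 ± 0.15 SE). Klf15 acts in amino acid and glucose metabolism as well as in the hormone response. Klf9, among the most abundant of the 10 genes per length, differed least, at 162.3 to 169.6 CPM against 124.8 to 145.5 CPM (0.18 ± 0.09 SE). Sult1a1 stood at 12.1 ± 1.29 CPM in the knockout and 7.72 ± 1.11 CPM in the transgenic mice (SD, n = 4), and differed 1.96-fold after allowing for batch.

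Batch enters these values through transgenic mouse 4 alone. Its repeat library in batch 2 gave 2.54 CPM for Map3k6 against 4.05 in batch 1, 4.47 against 6.02 for Cdkn1a, and 9.64 against 12.2 for Plin4. Tsc22d3 went the other way, at 72.4 and 69.6 CPM. Without a batch term the log2 fold change of Map3k6 was 0.497 in place of 1.05, that of Cdkn1a 0.668 in place of 1.00 and that of Plin4 1.399. Within batch 2, all 4 knockouts lay above the repeat library in 10 of 10 genes and in 24.7% of all genes, with Plin4 at 2.8 times its level and Tsc22d3 and Klf9 at 1.12 times.

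Sex, choroid plexus content and oligodendrocyte markers also differed in that comparison. The only male knockout, number 4, had the highest Fkbp5 (43.4 CPM), Tsc22d3 (90.3), Plin4 (30.4), Sgk1 (129.4) and Klf15 (26.1) of the 4 knockouts. With this male as the only knockout, log2 fold changes were 0.71 for Fkbp5, 0.459 for Tsc22d3 and 1.886 for Plin4. The 9 choroid plexus markers summed to 789.4 to 1044.2 CPM in the knockouts and 209.0 to 280.5 CPM in the transgenic mice, with all 9 above 0 in log2 fold change and none at 0 CPM in either group. The 10 oligodendrocyte markers all lay below 0, with a median of -0.34, and none was called by edgeR (5 had an unadjusted p under 0.05). They summed to 2670.6 to 3340.3 CPM in the knockouts and 3280.7 to 3843.5 CPM in the transgenic mice, and their part in the values of the 10 genes was not tested. With the Ttr term, Plin4 stood at 1.841, Cdkn1a at 1.192 and Sgk1 at 0.516, where the values without it were 1.71, 1.00 and 0.66.

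Other pathway genes were counted in this comparison by the same fit. Of 23 other glucocorticoid-induced genes 21 lay above 0, none was called by edgeR (7 had an unadjusted p under 0.05), and the median was 0.18. Stip1, an Hsp90 co-chaperone that loads the receptor, was the 1 of 14 receptor and ligand genes to rise (1.4-fold, adjusted p = 0.0366). Of 9 p53 targets none rose and Zmat3 fell (-0.44, adjusted p = 0.0118). Of 12 ATF4 targets 7 rose. The 10 activity-induced early genes, which include Fos, Arc and Egr1, all lay below 0, with a median of -0.81, and none was called by edgeR (5 had an unadjusted p under 0.05). Their summed level was 250.5 to 292.6 CPM in the knockouts and 412.4 to 633.6 CPM in the transgenic mice, and their part in the values of the 10 genes was not tested.

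Against B6J, the B6J knockout values came from different batches and are likewise a description. All 10 fold changes were above 0, from 0.03 (Klf9) to 1.39 (Plin4), and the groups did not overlap for Plin4, Klf15 and Klf9. Of all genes 6.87% were higher in the knockout without overlap, and 0.106% were called. Sult1a1 (ENSMUSG00000030711.16; chromosome 7, 126672865 to 126690443), a sulfotransferase that inactivates phenols and catechols, was at 7.91, 9.71, 10.7 and 8.66 CPM in B6J and at 12.4, 10.5, 13.6 and 11.8 CPM in the knockout, with knockout 2 below B6J 3. For Map3k6 and Cdkn1a the knockout mean was below that of B6J before the batch term (4.66 against 4.7 CPM, and 8.97 against 10.1 CPM), and their log2 fold changes without it were -0.011 and -0.165. For the same genes with it they were 0.66 ± 0.29 and 0.27 ± 0.29 SE. Of 23 other glucocorticoid-induced genes 19 lay above 0 and none was called by edgeR (2 had an unadjusted p under 0.05). In edgeR 2043 of all 25481 genes had an unadjusted p under 0.05. The 3 comparisons that involve B6J, its transgenic and its knockout mice share libraries with one another.

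Within groups, the 10 genes tended to vary together from mouse to mouse. After the group mean was taken from each library's log2 CPM, 42 of 45 pairs of genes had a Pearson r above 0 over the 16 batch 1 libraries, with a median of 0.37 and a range of -0.11 to 0.75. The highest was between Tsc22d3 and Plin4, and Map3k6 with Zbtb16 followed at 0.72. Points share a library and its depth and dissection, so these are descriptions. In B6N knockout 1 all 10 genes lay above their group mean, and in B6N knockout 3 and B6N 3 none did. B6N knockout 3 had the most Ttr of the B6N knockouts (257.2 CPM) and B6N 3 the least of the B6N mice (2.74 CPM).

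The genes most like the mean of the 10 over these 16 libraries were Parg (r = 0.93, mean 49.9 CPM), D130017N08Rik (0.82), Rinl (0.81), 5033428I22Rik (0.81) and Trim30b (0.8). They were picked from 20341 genes at 1 CPM or more, a number that includes the 10, which were not ranked. Parg encodes the enzyme that removes poly(ADP-ribose) chains from proteins.

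**Figure D4:**
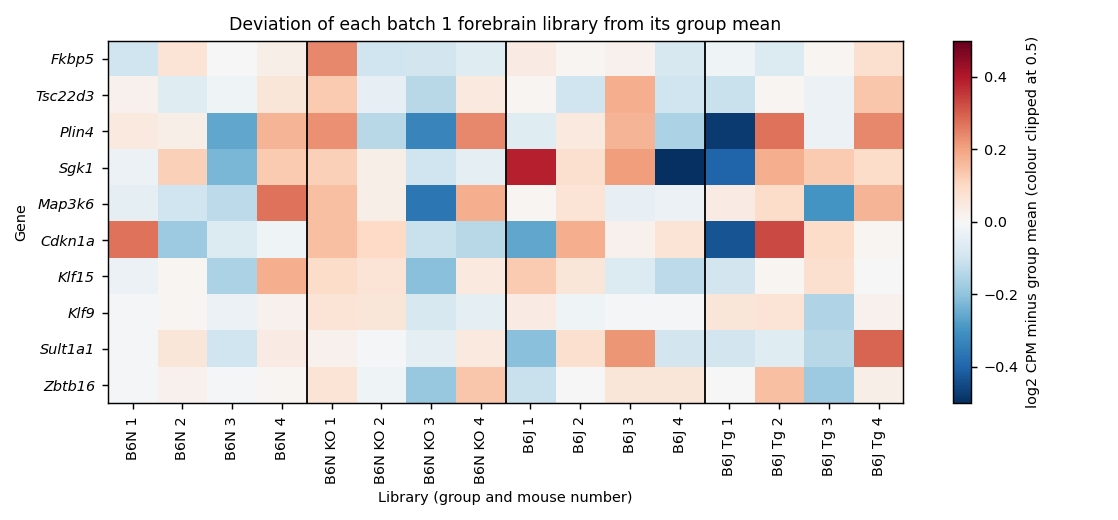
Log2 CPM of each gene in each batch 1 forebrain library minus the mean of its group, as colour from blue (below) to red (above), clipped at 0.5. The column of B6N knockout 1 is above 0 in all 10 genes and those of B6N knockout 3 and B6N 3 are below it in all 10.

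In hippocampus, none of the 10 genes passed in RNA by edgeR or DESeq2 (1 had an unadjusted p under 0.05), where edgeR called 0.0413% of all genes, 8 of 19352. An unadjusted p under 0.05 was found in edgeR for 1536 of the 19352. Cdkn1a measured 4.09, 5.29 and 3.55 CPM in B6N 1 to 3, against 5.61, 5.96 and 5.79 CPM in knockouts 1 to 3. The knockouts lay above the B6N samples, as in forebrain, but the difference did not pass (0.42 ± 0.16 SE, n = 3, adjusted p = 0.543). Tsc22d3 was at 58.9, 73.9 and 56.2 CPM in B6N and at 58.7, 48.5 and 57.0 CPM in the knockout, with overlap (-0.20 ± 0.12 SE, adjusted p = 0.715). The other 8 genes had log2 fold changes of 0.00 (Sult1a1) to 0.29 (Sgk1), all with overlap. Of 24 other glucocorticoid-induced genes none was called by edgeR or DESeq2 (1 had an unadjusted p under 0.05 in edgeR), and Nr3c1 stood at -0.16 (adjusted p = 0.505). Of 12 ATF4 targets 4 rose in edgeR and 8 in DESeq2. The 10 oligodendrocyte markers all lay below 0 (median -0.38), with none called by edgeR (8 had an unadjusted p under 0.05) and Cnp, Mbp and Mog called lower by DESeq2. Their part in the values of the 10 genes was not tested.

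Sgk1 in hippocampus RNA was at 74.7, 70.7 and 53.6 CPM in B6N and at 81.2, 57.7 and 103.8 CPM in the knockout. Ttr in the same libraries was at 2499.8, 129.6 and 68.7 CPM, and at 1489.0, 44.2 and 3697.0 CPM. In each genotype the order of the 3 libraries by Sgk1 was their order by Ttr, and the part of choroid plexus in Sgk1 was not tested. In footprints library 1 of each genotype was highest for both genes, but libraries 2 and 3 had opposite orders. Plin4 ranged from 6.96 to 11.5 CPM in B6N and from 6.13 to 14.8 CPM in the knockout, the widest relative spread of the 10 genes in the knockout RNA.

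**Figure D5:**
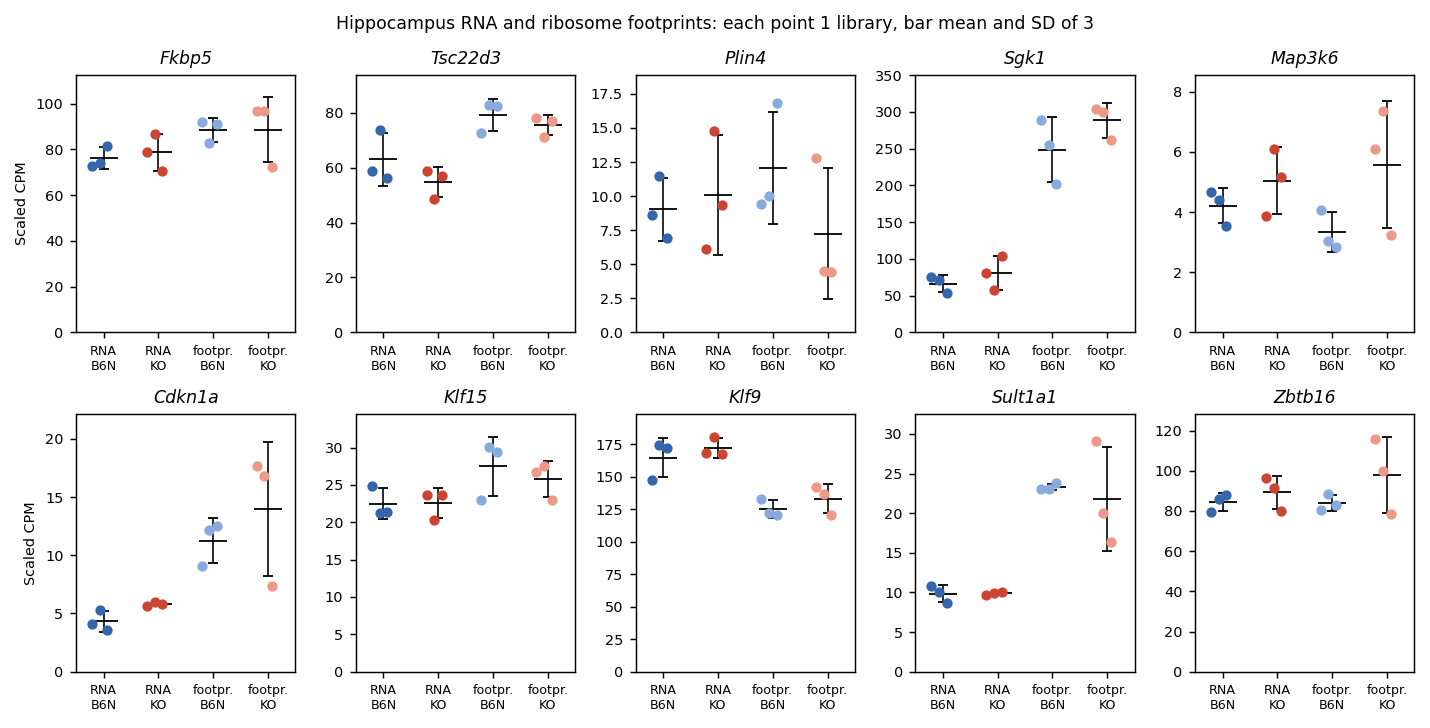
Scaled CPM of the 10 genes in hippocampus RNA and ribosome footprints of B6N and B6N knockout (KO), 1 point per library, with the mean and SD of 3. Sgk1 is at 202.0 to 304.3 CPM in footprints and at 53.6 to 103.8 CPM in RNA, and for Cdkn1a the knockout RNA lies at 5.61 to 5.96 CPM, above B6N.

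In ribosome footprints none of the 10 genes was called either by edgeR or DESeq2 (1 had an unadjusted p under 0.05), although 5.35% of all genes were called by edgeR. An unadjusted p under 0.05 was found in edgeR for 2905 of all 13227 genes. Map3k6 was at 4.08, 3.04 and 2.85 CPM in B6N and at 6.1, 7.37 and 3.25 CPM in the knockout, where knockout 3 overlapped B6N (0.75 ± 0.33 SE, n = 3, adjusted p = 0.196). Plin4 lay between 9.45 and 16.8 CPM in the 3 B6N libraries and at 12.8, 4.47 and 4.45 CPM in the knockout (-0.67 ± 0.43 SE, adjusted p = 0.412). Without knockout 1 it was called lower (-1.444, adjusted p = 0.022), so that value rests on 1 library. Cdkn1a footprints were at 9.05, 12.2 and 12.5 CPM in B6N and at 17.7, 16.8 and 7.33 CPM in the knockout, the last below all B6N samples.

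Outside the 10, 4 of 24 other glucocorticoid-induced genes fell in footprints, the metallothioneins Mt1, Mt2 and Mt3 and the transcription factor gene Cebpd, with Mt1 at -0.66 ± 0.08 SE (adjusted p = 0.00175). The metallothioneins bind zinc and copper. DESeq2 called 5 lower, these and Sdc4. Per1 stood at 0.41 ± 0.11 SE in footprints and did not pass in edgeR (adjusted p = 0.0542), while DESeq2 called it. Cell type markers moved with this comparison. Of 8 astrocyte markers 2 fell (Aldoc and Fgfr3), of 7 microglial markers 3 (Cx3cr1, C1qa and C1qb), of 10 oligodendrocyte markers 2 (Mbp and Mobp), of 7 neuronal markers 1 (Slc17a7) and of 6 hippocampal markers 1 (Prox1). The summed 10 endothelial markers were at 266.9 to 505.0 CPM in B6N and 483.5 to 524.4 CPM in the knockout. All 7 meningeal markers lay above 0 (median 0.52), as did all 10 activity-induced early genes (median 0.71). Of the early genes edgeR called none (6 had an unadjusted p under 0.05), and DESeq2 called Egr1, Egr2, Junb and Npas4 higher. Their part in the values was not tested.

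Footprints per RNA differed among the 10 genes in both genotypes. The ratio of mean CPM in the 2 assays was 3.75 for Sgk1 in B6N (2.71 to 5.39 over pairs of libraries), 2.61 for Cdkn1a and 2.36 for Sult1a1. Zbtb16 stood at 0.993, Map3k6 at 0.79 and Klf9 at 0.761. On the log2 scale Sgk1 was at 1.91, where the median of 14866 genes was -0.18 and the upper quartile 0.51. Such a ratio also holds the share of the RNA that is coding, so it orders genes only within these libraries. Marker content differed between the assays as well. In B6N the choroid plexus markers summed to 7841.8 to 16904.2 CPM in footprints and 324.2 to 4416.7 CPM in RNA. Meningeal markers summed to 295.5 to 425.4 and 61.7 to 79.6 CPM, and the part of such content in the ratios was not tested. In the knockout, Sgk1 stood at 3.56 and Cdkn1a at 2.41.

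The difference in footprints per RNA between genotypes, tested as the interaction of assay and genotype, gave no call among the 10 genes by edgeR or DESeq2 and none at an unadjusted p under 0.05. Across all 15202 genes edgeR called 0% (2251 had an unadjusted p under 0.05) and DESeq2 called 494. For Sgk1 the log2 difference was -0.09 ± 0.28 SE (adjusted p = 0.927, n = 3 per group and assay), and for Cdkn1a it was -0.12 ± 0.36 SE (adjusted p = 0.925). The widest was that of Plin4, at -0.85 ± 0.63 SE (adjusted p = 0.585). Of 24 other glucocorticoid-induced genes edgeR called none (8 had an unadjusted p under 0.05), and DESeq2 called 4 lower, Cebpd, Ddit4, Mt1 and Mt3.

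The share of each gene's counts held by a transcript was described and not tested. Fkbp5 had 15 annotated transcripts and 3 with at least 5% of its counts in some group, Sgk1 13 and 3, and Klf9 a single one. The leading transcript of Cdkn1a, Cdkn1a-201, held 86.0% ± 5.94 of its estimated counts in B6N, 90.7% ± 4.8 in B6N knockout and 92.3% ± 3.21 in B6J (SD, n = 4), and Sgk1-201 held 63.8% ± 4.68, 64.9% ± 5.69 and 59.6% ± 4.67 in the same groups. Fkbp5-201 held 55.1% to 65.4% in B6N and 68.3% to 78.6% in B6J, with no overlap. Klf15-202 held 2.74% to 17.9% in the B6J knockout and 19.7% to 27.4% in B6J, again with no overlap and in different batches. Both were picked out from many transcripts and pairs of groups, and how often such splits occur over all transcripts was not counted. For Plin4 the split between its 2 transcripts could not be resolved, with Plin4-202 at 70.1% ± 34.7 in B6N. Several of the genes share bases with another annotated gene, among them Plin4 with Hdgfl2 and Sult1a1 with Slx1b. In hippocampus RNA, whose kit did not mark the strand, reads from such a pair cannot be told apart.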

How the data were processed

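The 10 genes, the gene lists and the comparisons were chosen with earlier results of these data known. Forebrain values were deposited by the authors as estimated counts per transcript, in a kallisto layout with effective lengths and TPM, per the file headers. Hippocampus values were deposited as whole counts per gene. Bowtie2 2.2.3, featureCounts, HISAT2 2.1.0, kallisto 0.42.4 and the build mm10 are listed, with no roles, per the submitters' processing notes.

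Estimated counts were summed per gene and rounded. The expected counts and the counts were scaled by TMM, filtered with filterByExpr (minimum count 10) and tested with edgeR 4.0.16 in R 4.3.3, two-sided, with robust quasi-likelihood F tests and Benjamini-Hochberg adjustment over all genes. The 16 batch 1 forebrain libraries were fitted together. The B6J knockout entered a fit of 21 libraries with a batch term, in which transgenic mouse 4 had its own coefficient. Each hippocampus assay had its own fit, and the interaction of assay and genotype used all 12 libraries. The script was tested on simulated data. Alternatives were DESeq2 1.42.0, RLE scaling, no filter, a transcript length offset, the groups alone, a replicate block, no batch term, the male knockout alone, each library left out and, added after the data were seen, a Ttr term.

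Named genes are the 10, Nr3c1, Nr3c2, Hsd11b1, Per1, Dbp, Arntl and Ttr, the called genes of each list (up to 6), and the 5 genes most like the mean of the 10. Errors of CPM are SD over libraries and errors of log2 fold changes are SE. Positions and promoters are from RefSeq on GRCm38. A single call on the wider gene lists is not reported here.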

Additional observations from a re-analysis of the deposited data

Results flagged for a closer look

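Of 50 sets of 4 forebrain mice (10 genes in 5 groups), 5 held a library that stood apart by Dixon's test, which chance does in about 1 of 20. Fkbp5 was at 38.8 CPM in B6N knockout 1, with the others at 30.7 to 31.6. Klf15 was at 16.2 CPM in B6N knockout 3 (others 19.4 to 20.0). Sult1a1 was at 9.37 CPM in transgenic mouse 4 (others 6.97 to 7.36). Tsc22d3 was at 90.3 CPM in B6J knockout 4, the male (others 77.5 to 78.7), and Klf9 at 169.6 CPM in B6J knockout 3 (others 162.3 to 163.2).

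Tsc22d3 was lower in all 4 B6N knockouts than in B6N, and higher in all 4 B6J knockouts than in B6J transgenic mice. The log2 fold change in B6N minus that in B6J was -0.62. This difference was not tested, and strain, batch, sex and choroid plexus content differ across it as well. The B6J comparison is also one on which the genes were chosen, and its reference mice carry the transgene.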

How the results depend on the processing

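In B6N knockout against B6N, Cdkn1a and Tsc22d3 were called under all 15 alternatives, with adjusted p from 0.000717 to 0.0428 and from 0.000107 to 0.0394. Against B6N, Cdkn1a in B6J was likewise called under all 15. The number of the 10 genes called there, 3, became 1 with the transcript length offset, 5 with a replicate block and 5 with the 2 groups alone. It was 4 with DESeq2, which added Plin4, and ran from 1 to 3 with a library left out. It was 1 without B6J 4, B6N 1 or B6N 3. In footprints it ran from 0 to 1, with the 1 arising without knockout 1. In B6J against B6N, calls over all genes were 143 with the length offset and 990 with the 2 groups alone, against 434 as reported. The cause of these changes was not tested.

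Among the tested comparisons, signs turned for values that had not passed: Fkbp5 with the length offset (-0.079 in B6N knockout against B6N, -0.126 in B6J against B6N), Plin4 in B6N knockout with the Ttr term (-0.061) or the replicate block (-0.001), Klf15 in hippocampus RNA with the Ttr term (-0.04), Sult1a1 there without the filter (0.0) or with the block (0.002), and Fkbp5 in footprints without the filter (-0.004), with the Ttr term (-0.034) or the block (-0.008). In B6J knockout against B6J, which was not tested, Map3k6 (-0.011) and Cdkn1a (-0.165) turned without the batch term.

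Leaving out a library turned further values. In B6N knockout forebrain Fkbp5 ran from -0.049 to 0.065, Plin4 from -0.084 to 0.108 and Map3k6 from -0.141 to 0.04. In B6J against B6N, Tsc22d3 ran from -0.083 to 0.011, Sgk1 from -0.077 to 0.243 and Klf15 from -0.109 to 0.008, and in transgenic against B6N, Cdkn1a from -0.011 to 0.235. In hippocampus RNA the ranges were -0.029 to 0.12 for Fkbp5, -0.233 to 0.417 for Plin4, -0.034 to 0.085 for Klf15, -0.011 to 0.108 for Klf9 and -0.088 to 0.068 for Sult1a1. In footprints they were -0.071 to 0.129 for Fkbp5 and -0.363 to 0.092 for Sult1a1. For footprints per RNA they were -0.152 to 0.029 for Fkbp5, -0.025 to 0.185 for Tsc22d3, -0.279 to 0.116 for Sgk1, -0.353 to 0.144 for Cdkn1a, -0.055 to 0.081 for Klf9, -0.386 to 0.037 for Sult1a1 and -0.023 to 0.233 for Zbtb16.

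Over all genes, calls ranged from 174 to 751 in B6N knockout forebrain (481 as reported), 143 to 990 in B6J against B6N (434), 53 to 176 in transgenic against B6N (92), 16 to 196 in B6J against transgenic (63), 96 to 1994 in B6J knockout against transgenic (188; the highest without a batch term), 4 to 1983 in B6J knockout against B6J (27; likewise), 0 to 138 in hippocampus RNA (8), 32 to 1080 in footprints (708) and 0 to 494 for footprints per RNA (0).

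Within an assay, libraries of a group and of B6N with the same replicate number did not deviate together (r from -0.28 to 0.104 over genes). The numbers therefore do not pair libraries across groups. Whether RNA and footprint libraries of the same number came from the same sample was not checked. The interaction fit took every library as separate, and its replicate block was set within each assay. Apart from B6J against B6N, the replicate block left the number of the 10 genes called as it was. Leaving out transgenic mouse 4 was not run in the fit with the batch term, since its libraries alone link the batches. Map3k6, at 2.47 to 5.09 CPM in forebrain, had the fewest counts behind its values.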
